A study of Mus musculus with 360 samples.

Results

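The collagen and laminin chains are the 55 genes of the exon matrix whose symbol has the form of a collagen alpha chain (44 genes) or of a laminin alpha, beta or gamma chain (11 genes), out of 48440 genes in all. They were measured in 360 single cells of the adult mouse cochlea, 180 control and 180 GAP, by SMART-MATQ, a full-length single-cell method whose reads carry unique molecular identifiers (UMIs). Control mice were Fbxo2CreERT2::Rosa26-tdTomato: the Fbxo2 locus drives a tamoxifen-inducible Cre, and Cre activity turns on the tdTomato reporter. GAP mice were Fbxo2CreERT2::Rosa26-tdTomato::Rosa26-GAP, and in them Cre activity also turns on Gfi1, Atoh1 and Pou4f3, transcription factors of hair cell formation. Mice of both genotypes received tamoxifen at 3 weeks of age, and their cochleae were dissociated with papain at 5 weeks and sorted on tdTomato and EpCAM. The cells are therefore those that the Fbxo2 driver reached and the sort kept, in both genotypes.

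Collagens are trimers of alpha chains. Fibrillar collagens (types I, II, III, V, XI, XXIV and XXVII) build fibrils, fibril-associated collagens such as type IX coat them, and type IV collagen forms the sheet of basement membranes. Laminins are trimers of 1 alpha, 1 beta and 1 gamma chain and form the other polymer of the basement membrane, to which epithelial cells attach. In the cochlea, types II, IX and XI collagen are known as parts of the tectorial membrane, and loss of the alpha3, alpha4 or alpha5 chain of collagen IV causes Alport syndrome, with kidney disease and deafness.

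The promoter windows of the chains that differed most between the genotypes among those at 50 CPM or more in one of them are shown first, with that of a gene pair that shares a start region; Col2a1 also meets this rule. Each runs from 250 bases before to 50 bases after an annotated start, 5′ to 3′ on the gene's strand, and comes from RefSeq on GRCm38.p6 (mm10). An entry was found for 40 of the 55 genes. The windows are Col4a4 (chr1:82586800-82587099, minus strand), Col4a5 (chrX:141475169-141475468, plus), Lamb2 (chr9:108479612-108479911, plus), Col18a1 (chr10:77166481-77166780, minus), Col9a1 (chr1:24177360-24177659, plus) and Col4a2 (chr8:11312555-11312854, plus). Capitals mark every match, on either strand, to CAGNTG, a form of the E-box bound by factors such as Atoh1, and to GGGCGG, a GC box.
Col4a4: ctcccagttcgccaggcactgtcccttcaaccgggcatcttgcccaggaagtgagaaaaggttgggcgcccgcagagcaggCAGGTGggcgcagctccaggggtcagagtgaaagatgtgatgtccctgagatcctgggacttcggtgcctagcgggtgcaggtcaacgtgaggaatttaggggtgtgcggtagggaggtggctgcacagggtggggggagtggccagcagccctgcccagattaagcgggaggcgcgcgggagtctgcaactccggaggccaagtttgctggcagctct
Col4a5: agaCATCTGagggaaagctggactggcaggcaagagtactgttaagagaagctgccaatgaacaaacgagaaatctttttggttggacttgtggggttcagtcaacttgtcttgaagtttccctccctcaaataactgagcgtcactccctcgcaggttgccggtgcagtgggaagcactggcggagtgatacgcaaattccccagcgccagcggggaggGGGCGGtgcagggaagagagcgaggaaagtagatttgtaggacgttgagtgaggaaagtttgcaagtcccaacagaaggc
Lamb2: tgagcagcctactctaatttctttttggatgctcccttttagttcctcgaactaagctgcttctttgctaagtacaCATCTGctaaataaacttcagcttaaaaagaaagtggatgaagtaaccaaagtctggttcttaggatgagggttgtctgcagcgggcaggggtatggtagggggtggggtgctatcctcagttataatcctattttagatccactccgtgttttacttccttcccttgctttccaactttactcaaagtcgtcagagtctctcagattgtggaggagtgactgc
Col18a1: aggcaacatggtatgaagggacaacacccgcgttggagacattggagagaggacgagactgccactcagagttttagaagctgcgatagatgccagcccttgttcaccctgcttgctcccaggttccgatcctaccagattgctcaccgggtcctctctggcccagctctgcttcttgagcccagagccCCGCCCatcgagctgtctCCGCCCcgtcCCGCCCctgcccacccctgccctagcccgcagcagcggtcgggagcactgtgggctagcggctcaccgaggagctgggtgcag
Col9a1: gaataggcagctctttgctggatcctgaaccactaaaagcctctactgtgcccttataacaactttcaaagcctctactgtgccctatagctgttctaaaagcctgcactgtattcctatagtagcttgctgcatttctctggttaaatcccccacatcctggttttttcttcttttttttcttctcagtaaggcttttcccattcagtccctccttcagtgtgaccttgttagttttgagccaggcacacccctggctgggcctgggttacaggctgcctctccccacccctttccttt
Col4a2: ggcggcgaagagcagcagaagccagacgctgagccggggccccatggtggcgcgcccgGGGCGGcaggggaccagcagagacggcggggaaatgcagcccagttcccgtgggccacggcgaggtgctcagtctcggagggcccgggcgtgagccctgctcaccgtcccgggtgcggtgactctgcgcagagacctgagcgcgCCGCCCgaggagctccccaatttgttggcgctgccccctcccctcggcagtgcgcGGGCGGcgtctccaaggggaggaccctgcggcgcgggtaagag

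CAGNTG had 1 match each in the windows of Col4a4, Col4a5 and Lamb2 and none in those of Col18a1, Col9a1 and Col4a2 printed here. A second window of Col9a1, chr1:24194953-24195252, has 1 match, as does that of Col6a1, so matches were found among chains that were lower and chains that were higher in GAP cells. Of 32851 promoter windows of this length, 51.4% hold CAGNTG and 35.7% hold GGGCGG, so a match is common. The windows differed in base composition: Col4a2 held 33 CpG dinucleotides, Col18a1 16, Col4a4 14, Col4a5 11, Lamb2 4 and Col9a1 0, against a median of 7 over all windows. Col4a4 and Col4a3 start 72 bases apart on opposite strands of chromosome 1, so the Col4a4 window also holds the Col4a3 start at base 82586921. Col4a2 and Col4a1 start 21 bases apart on opposite strands of chromosome 8.

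A level is the UMI sum of a gene in a set of cells, scaled to a common total as CPM (UMIs per 1e6 UMIs of the set). The control cells held 4001274 UMIs in all and the GAP cells 5366362, with medians of 21280 and 28963 UMIs per cell. No animal is named in the labels, so a genotype is 1 sample and no test between genotypes was possible. Brackets after a level or ratio give a 95% interval, which covers counting error only and not the variation between animals. Cell titles carry the letters A and B (control) or C and D (GAP), read here as plates. Each letter holds 1 genotype, so the plates cannot be told apart from the genotypes. In pools of cells fewer cells of a kind and less RNA per cell cannot be told apart either, except where levels are given per cluster. Of the genes of the GAP allele, Atoh1 and Pou4f3 had 0 UMIs in control cells and were at 805 and 583 CPM in GAP cells, and Gfi1 had 1 UMI in control cells and was at 203 CPM in GAP cells. The authors' deposited annotation puts 341 cells into 9 numbered and named clusters. These were made from the same counts, so the level of a chain in a cluster is a description.

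Of the 55 chain genes, 47 had at least 1 UMI, 33 of them in control cells and all 47 in GAP cells. Col10a1, Col24a1, Col28a1, Col3a1, Col5a2, Col6a4, Col6a6 and Col8a1 were at 0 UMIs in every cell, where 3 counts would be 0.75 CPM in control and 0.559 CPM in GAP cells. Col3a1, the partner of type I collagen in most connective tissue fibrils, was thus not detectable at this depth in either genotype. In 1 genotype or both, 25 chains reached 10 CPM. Another 22 had UMIs but stayed below 10 CPM in both: Col14a1, Col15a1, Col16a1, Col17a1, Col19a1, Col1a1, Col22a1, Col23a1, Col25a1, Col26a1, Col4a1, Col4a6, Col5a1, Col5a3, Col6a2, Col6a3, Col6a5, Col7a1, Col8a2, Lama1, Lama2 and Lamc3.

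Control cells were dominated by a small set of chains. Per kilobase of exon, which allows genes to be compared, the highest levels in control cells were those of Lamb2 at 21.2 and Col27a1 at 20.6 CPM per kb, which differed by less than their counting error. Col11a2 followed at 15.3, Lamc1 at 14.9, Lama5 at 13.3 and Col9a3 at 13.2 CPM per kb. The set thus holds RNA of laminin alpha5, beta2 and gamma1 chains beside that of cartilage-type collagens, while assembly into trimers was not measured. Col27a1 and the type XI chains are fibrillar, and Col9a3 is a fibril-associated chain. In GAP cells the order was Lama5 at 21.2, Col27a1 at 20.01, Lamc1 at 17.3 and Col11a2 at 15.4 CPM per kb, and Lamb2 was at 7.29.

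The control clusters shared a core and differed in the beta and collagen IV chains. Col27a1, Col11a1, Col11a2, Col4a4, Col4a5, Col9a2, Col9a3, Lama5, Lamb2 and Lamc1 were at 10 CPM or more in each of the 5 clusters with at least 10 control cells. Those clusters are 0 (named WT Cells 1, 80 control cells), 3 (WT Cells 2, 29), 4 (WT Supp Cells, 29), 6 (WT Cells 3, 20) and 5 (Reprogrammed Unknown 1, 13). Of the 55 chains they held 15, 17, 16, 15 and 19 at that level, in that order. Of all 48440 genes, 17.6 to 17.9 percent were at that level in these clusters. The heat map of chains by cluster shows these blocks.

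**Figure D1:**
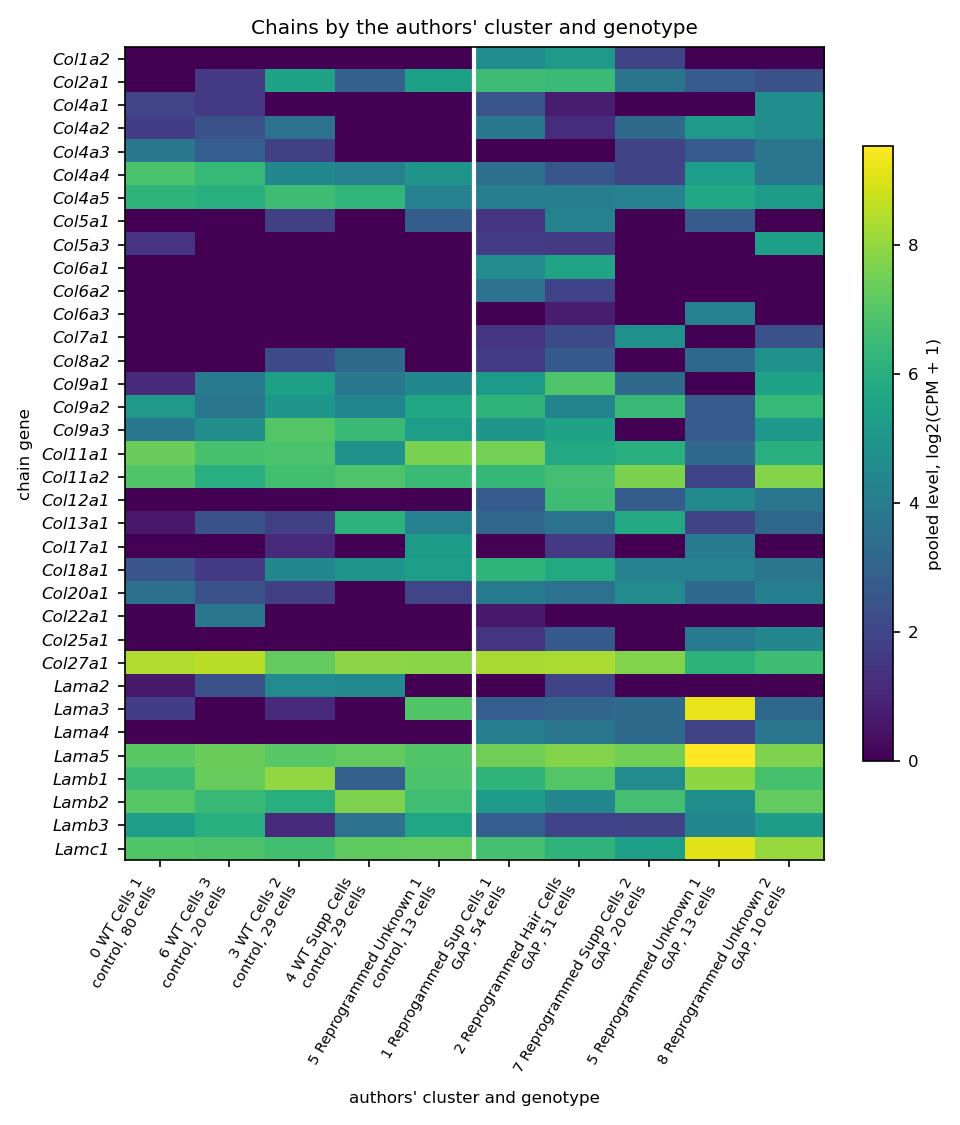
Pooled level of each chain, as log2(CPM + 1) on the color scale, in the authors' clusters with at least 10 cells of a genotype; rows are chain genes at 10 CPM or more in at least 1 of the sets, columns are clusters, and the white line separates control from GAP cells. Col4a4 and Lamb3 are bright left of the line in clusters 0 and 6 and dark in GAP clusters 1, 2 and 7, Col12a1 and Col1a2 are at 0 in all control columns, and Lama3 stands out in cluster 5 of both genotypes.

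Of control clusters 0, 3, 4 and 6, clusters 0 and 6 had the higher levels of collagen IV alpha4 and laminin beta3. Col4a4, the alpha4 chain that assembles with alpha3 and alpha5, was at 111.96 CPM (96.6 to 129.1) in cluster 0 and 83.3 CPM (59.5 to 113.5) in cluster 6, against 21.01 (12.2 to 33.6) in cluster 3 and 17.4 (7.53 to 34.4) in cluster 4. Col4a5 was more even, between 64.6 CPM in cluster 6 and 93.9 CPM in cluster 3, and at 17.95 CPM in the control cells of cluster 5. Lamb3, the beta chain of an epithelial laminin that also holds alpha3, was at 38.3 CPM (29.6 to 48.8) in cluster 0 and 62.5 CPM (42.2 to 89.2) in cluster 6, and had 1 UMI in cluster 3. The 7 control cells of cluster 8 had Col4a4 at 130.4 CPM (85.96 to 189.8) and Lamb3 at 33.8 CPM (13.6 to 69.7), and the control cells of cluster 5 had Col4a4 at 29.9 CPM (14.3 to 55.03) beside the Lamb3 level given further on.

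Cluster 3 had the highest Lamb1 level of the control clusters, and cartilage chains beside it. Lamb1, the beta1 chain of laminins, was at 256 CPM (222 to 293) there and at 6.54 CPM (1.35 to 19.1) in cluster 4. Lamb2, the beta2 chain that can take its place in the trimer, ran the other way, at 64.3 CPM (47.99 to 84.3) in cluster 3 and 205 CPM (165.6 to 251) in cluster 4. Both beta chains were present in cluster 0, at 88.98 and 133.2 CPM. With each cell thinned to 8000 UMIs, 9 of the 29 cells of cluster 3 had a UMI of both, 13 of Lamb1 alone and 2 of Lamb2 alone; in cluster 4 the counts were 1, 1 and 12 of 29 cells. Cluster 3 also had Col9a3 at 126.05 CPM, Col2a1 at 44.5 CPM and Col9a1 at 42.02 CPM, where cluster 0 had 13.6, 0 and 1.18 CPM. These chains were not limited to cluster 3: control cluster 4 had Col9a3 at 85.003 CPM, and the control cells of cluster 5 had Col2a1 at 41.9 CPM, with 10 of 14 UMIs in 1 cell. The fibroblast marker list summed to 909.5 CPM in the control cells of cluster 3, against 162.04 in cluster 0 and 349 in cluster 4. Most of this list was 1 gene: over all control cells Lum made up 321 of its 361 CPM, and Dcn 30.7 CPM. The part of other cells in the levels of these chains was not tested.

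Cluster 4, which the authors named as supporting cells, had Col13a1 at 69.7 CPM (47.7 to 98.5), in 11 of 29 cells. Col13a1 encodes a transmembrane collagen, and it was at 4.17 CPM or less in control clusters 0, 3 and 6. Lama2, the alpha2 chain of muscle and nerve basement membranes, was at 21.8 CPM in cluster 4 and 23.5 CPM in cluster 3, with 80% of its UMIs in cluster 4 from 1 cell. The control cells of cluster 5 had Lama3 at 122.7 CPM and Lamb3 at 47.9 CPM, the alpha3 and beta3 chains that join in 1 laminin, beside Col17a1, the hemidesmosome collagen, at 35.9 CPM. These rest on few cells: 2 of 13 cells held all 41 Lama3 UMIs and 2 held all 12 Col17a1 UMIs.

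Between the genotypes, 3 of the 6 collagen IV chains and 2 of the 3 laminin beta chains were lower in GAP cells. The chains of the alpha3-alpha4-alpha5 trimer of collagen IV were each at least 2-fold lower, as were Lamb2 and Lamb3. Of 25 chains at 10 CPM or more in a genotype, these 5 were at least 2-fold lower in GAP on the log2(CPM + 1) scale and 10 were at least 2-fold higher. Over all 10152 genes at that level, 6.61 percent were at least 2-fold lower and 13 percent at least 2-fold higher. All 5 chains were lower in both GAP letters than in both control letters, as were 6.12 percent of all genes, and 9 of the 10 higher chains were higher in both GAP letters, as were 12.4 percent. The median log2 ratio was 0.21 over the 25 chains and 0.10 over all genes. Passing the level through only 1 genotype favors a difference, so these shares describe the set and lend no support to it.

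Control letters A and B held Col4a4 at 69.05 and 76.8 CPM, and GAP letters C and D at 18.8 and 16.01 CPM. Both GAP letters lay far below both control letters, with no overlap. The pooled level went from 72.98 to 17.5 CPM, 4.17-fold lower in GAP (3.29 to 5.31), and 66 of 180 control cells had a UMI against 28 of 180 GAP cells. Col4a4 lies on chr1:82448423-82586849, minus strand, in mm10. Col4a5, on the X chromosome, was at 83.7 and 66.9 CPM in the control letters and 21.2 and 26.3 CPM in the GAP letters. It was 3.20-fold lower in GAP (2.59 to 3.98), again with no overlap of letters, and had a UMI in 81 control and 48 GAP cells. With cells thinned to 8000 UMIs, which left out 3 control cells, a UMI of both Col4a4 and Col4a5 was seen in 19 control and 3 GAP cells.

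Col4a3, the third chain of that trimer, was the scarcest. The control letters had 13.6 and 8.43 CPM and the GAP letters 1.71 and 1.64 CPM, 6.56-fold lower in GAP (3.16 to 15.3). This rests on 44 control UMIs, 31.8% of them in 1 cell, and 9 GAP UMIs. With the richest cell of each genotype left out, or without letter A, Col4a3 was below 10 CPM and so did not count as different. An exon of Col4a3 also overlaps one of C430014B12Rik on the opposite strand by 289 bases, and whether the counting used strand is not given in the sources used here. The collagen IV chains of common basement membranes went the other way at low level: Col4a2 was at 5.25 CPM in control and 15.1 CPM in GAP cells, 2.88-fold higher (1.76 to 4.90; log2 ratio 0.85 without letter C), and its partner Col4a1 had 6 and 24 UMIs, a ratio of 2.98 (1.19 to 8.92). Summed over its 6 chains, collagen IV was at 166.4 CPM in control and 64.8 CPM in GAP cells, a ratio of 0.390 (0.341 to 0.444).

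Lamb2 stood at 141.6 and 116.995 CPM in the control letters and 38.9 and 50.9 CPM in the GAP letters. The GAP letters were again both below the control letters. The difference was 2.91-fold (2.49 to 3.41), and 59.4% of control and 35.6% of GAP cells had a UMI. Lamb3 was at 23.7 and 38.2 CPM in the control letters and 13.7 and 2.46 CPM in the GAP letters, 3.62-fold lower (2.56 to 5.19), with the GAP letters unlike each other. Lamb1 was level, at 122.5 CPM in control and 112.7 CPM in GAP cells. Summed, the beta chains were at 283 CPM in control and 165.7 CPM in GAP cells (ratio 0.586, 0.536 to 0.640).

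**Figure D2:**
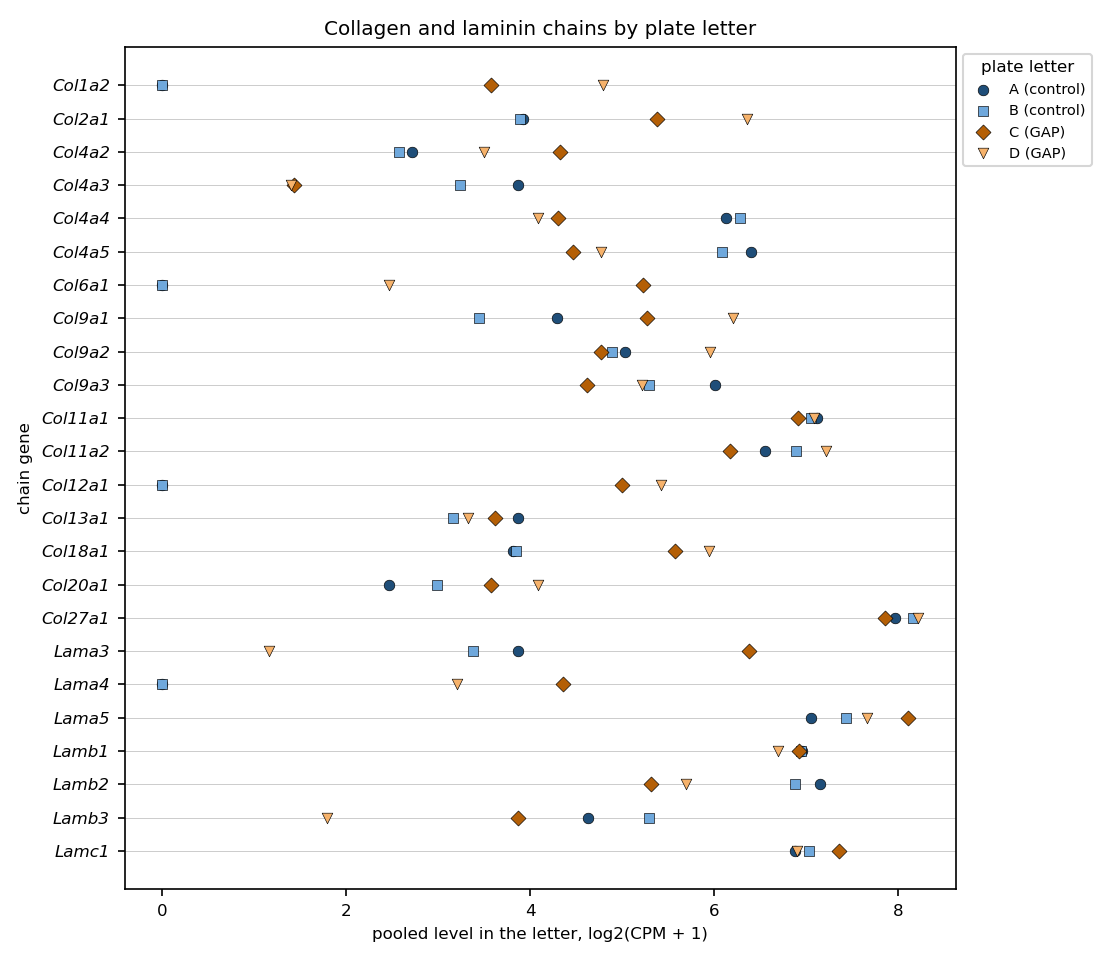
Pooled level of 24 chains at 10 CPM or more in a genotype, as log2(CPM + 1) on the horizontal axis, in plate letters A and B (control, blue) and C and D (GAP, orange). Col4a4, Col4a5 and Lamb2 have both GAP letters left of both control letters, Col1a2, Col6a1, Col12a1 and Lama4 are at 0 in both control letters, and Lama3 is high in letter C alone.

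Of the chains that were higher in GAP cells, 4 had no UMI in any of the 180 control cells. Col12a1, a large fibril-associated collagen, was at 31.1 CPM (letter C) and 41.9 CPM (letter D), at least 38.6-fold higher in GAP, with UMIs in 31 cells and 21.2% of them in 1 cell. Col6a1, a chain of the beaded microfibrils of type VI collagen, was at 36.5 and 4.52 CPM, at least 23.5-fold higher, in 21 cells. Col1a2, the alpha2 chain of type I collagen, was at 10.9 and 26.7 CPM, at least 19.2-fold higher, in 25 cells. Lama4, the alpha chain of vascular and nerve laminins, was at 19.5 and 8.21 CPM, at least 15.2-fold higher, in 27 cells. Both GAP letters held each of these 4 chains, and they were furthest apart for Col6a1. Without letter C, Col6a1 and Lama4 were below 10 CPM.

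Partner chains did not all follow. Col1a1, which is part of every type I collagen trimer, had 5 control and 15 GAP UMIs, 1.25 and 2.80 CPM, while Col1a2 had 0 and 97. Col6a2 and Col6a3, the partners of Col6a1, had 25 and 7 UMIs in GAP cells and 0 in control cells. In the same letters the marker lists of other cells also differed: endothelial and pericyte markers summed to 49.4, 0.991, 128.3 and 158.04 CPM in letters A to D, with Rgs5, a pericyte gene, at 0.9997 CPM in control and 97.6 CPM in GAP cells. Of that list's 9 genes, 5 had a UMI, and the defining endothelial genes Cdh5, Cldn5 and Emcn and the pericyte gene Kcnj8 were at 0. Fibroblast markers summed to 370, 352, 138.2 and 193 CPM, with Lum 3.25-fold lower in GAP (2.94 to 3.61), Apod at 1.25 and 26.3 CPM, and Coch and Ogn at 0. Schwann and satellite glia markers summed to 111.7 CPM in control and 91.7 CPM in GAP cells, leukocyte markers to 13.7 and 11.9 CPM, and bone and cartilage markers to 8.997 and 4.47 CPM with Acan and Ibsp at 0. Their part in the levels of these chains was not tested.

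Cartilage-type and heparan sulfate-bearing chains made up the next group. Col2a1, the main fibrillar collagen of cartilage and of the tectorial membrane, was at 14.1 and 13.9 CPM in the control letters and 40.6 and 80.9 CPM in the GAP letters, 4.21-fold higher in GAP (3.16 to 5.70). Col9a1, which coats type II fibrils, was at 18.6 and 9.92 CPM against 37.5 and 73.1 CPM, 3.77-fold higher (2.83 to 5.10). Col18a1, a basement membrane proteoglycan whose end is released as endostatin, was at 13.1 and 13.4 CPM against 46.8 and 60.8 CPM, 4.01-fold higher (2.98 to 5.48), and it was the most widely spread, with a UMI in 21 control and 81 GAP cells. In each of these 3 genes both GAP letters lay above both control letters. Col20a1, a fibril-associated chain, was at 4.54 and 6.94 CPM against 10.9 and 16.01 CPM, 2.30-fold higher (1.42 to 3.86); the log2 ratio was 0.84 without letter A and 0.82 without letter D, under 2-fold.

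The partner chains of Col9a1 did not differ as it did. Col9a2 was at 30.2 and 42.1 CPM (ratio 1.39, 1.11 to 1.75), with the letters overlapping. Col9a3 was at 63.5 and 38.2 CPM in the control letters and 23.6 and 36.1 CPM in the GAP letters, 1.73-fold lower in GAP (1.401 to 2.15). One exon of Col9a3 overlaps Tcfl5 on the opposite strand by 234 bases.

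Lama3 depended on 1 letter. Its levels in CPM were 13.6 and 9.42 in letters A and B, 82.6 in letter C and 1.23 in letter D, so the GAP letters lay on both sides of the control letters. The pooled ratio of 3.97 (2.89 to 5.57) therefore held for letter C alone: without it the log2 ratio was -2.49. In control cells 52.2% of the Lama3 UMIs came from 1 cell.

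Several abundant chains were less than 2-fold apart, unlike Lamb2. Col27a1 was at 268 CPM in control and 261 CPM in GAP cells (ratio 0.972, 0.897 to 1.05), Col11a1 at 135.2 and 126.9 CPM (0.939, 0.837 to 1.05) and Col11a2 at 105.2 and 106.03 CPM (1.008, 0.887 to 1.15). Lamc1 was at 123.5 and 142.9 CPM (1.16, 1.03 to 1.30). The scarcer Col13a1 was at 10.7 and 10.2 CPM (0.954, 0.628 to 1.46). Lama5, the alpha chain of most adult epithelial laminins, was at 132.1 and 171.5 CPM in the control letters and 274 and 202 CPM in the GAP letters, 1.59-fold higher (1.44 to 1.75), below the 2-fold bound. As sums, the 44 collagens were at 828 and 935 CPM (ratio 1.13, 1.08 to 1.18) and the 11 laminins at 663 and 690 CPM (1.04, 0.990 to 1.09), so the totals were close while single chains differed in both directions.

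**Figure D3:**
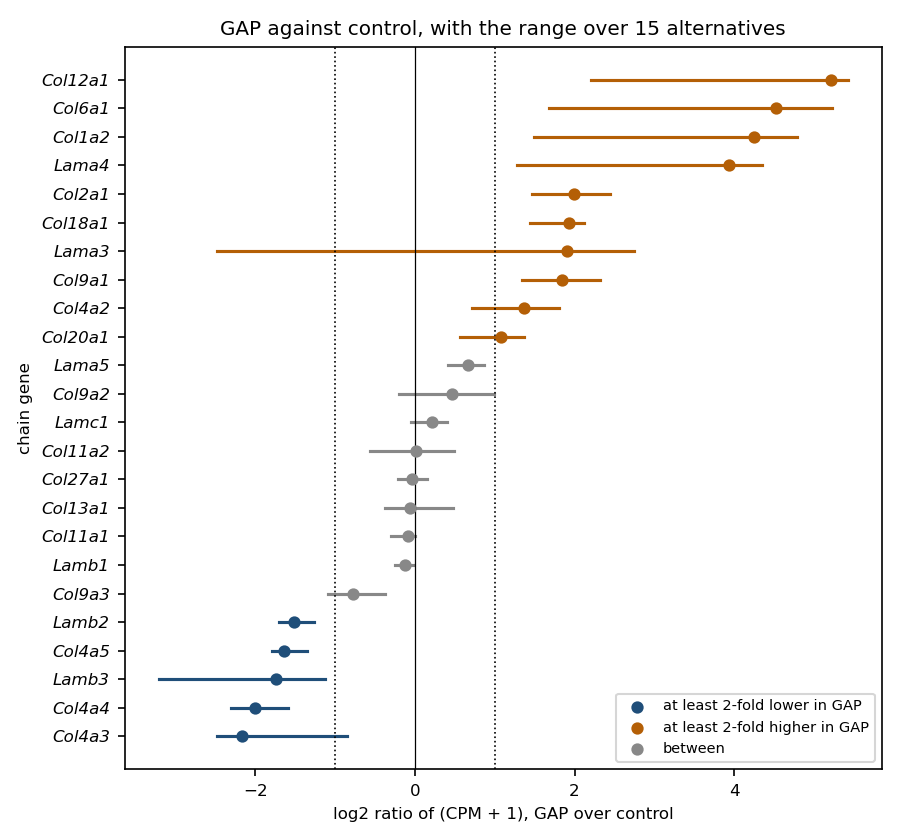
Log2 ratio of (CPM + 1), GAP over control, for 24 chains at 10 CPM or more in a genotype (points), with the range over 15 alternative settings (lines); dotted lines mark 2-fold. Col4a4, Col4a5, Lamb2 and Lamb3 stay below the lower dotted line over their whole range. Col18a1, Col2a1, Col9a1, Col12a1, Col1a2, Col6a1 and Lama4 stay above the upper one, while Lama3 crosses 0.

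Among the clusters that hold GAP cells alone, the alpha4 and alpha5 chains of collagen IV were low in each. These are cluster 1 (deposited under the name Reprogammed Sup Cells 1, 54 cells), cluster 2 (Reprogrammed Hair Cells, 51) and cluster 7 (Reprogrammed Supp Cells 2, 20). The hair cell marker list summed to 592, 1819 and 193 CPM in them, against 17.3 to 101.7 CPM in the control cells of clusters 0, 3, 4, 5 and 6. Supporting cell markers summed to 12608, 12568 and 16087 CPM, against 9351 to 15045 CPM in those control cells. In that list S100a1 alone made up 4945 of 11102 CPM in all control cells and 7689 of 11317 CPM in all GAP cells. Sox10 (1439 and 722 CPM), Gjb2 (1261 and 703 CPM) and Epyc (2503 and 1323 CPM) were lower in GAP cells, by less than 2-fold. Each cluster was set against all control cells with a cluster, and, as an alternative reading, against the control cluster with which an earlier description of these data paired it.

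Col4a4 was at 10.1 CPM in cluster 1, 4.85 CPM in cluster 2 and 2.92 CPM (1 UMI) in cluster 7, against 73.2 CPM in the clustered control cells. That is 7.22-fold lower (4.49 to 12.4) in cluster 1 and 15.1-fold lower (7.24 to 37.9) in cluster 2. Col4a5 was at nearly the same level in all 3, at 15.8, 15.9 and 17.5 CPM against 75.5 CPM, which is 4.79-fold (3.24 to 7.32), 4.74-fold (3.10 to 7.597) and 4.30-fold (1.95 to 11.8) lower. Col4a3 had 0 UMIs in clusters 1 and 2 and 1 UMI in cluster 7. Lamb3 was 5.02-fold lower (2.71 to 10.3) in cluster 1 and 11.2-fold lower (4.28 to 41.9) in cluster 2, and had 1 UMI in cluster 7. These 4 chains were the ones at least 2-fold lower in all 3 clusters.

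Lamb2 was low in clusters 1 and 2, while its level in cluster 7 rested on 1 cell. It was at 37.8 CPM in cluster 1, 3.42-fold lower than in control (2.64 to 4.47), and at 20.1 CPM in cluster 2, 6.42-fold lower (4.42 to 9.69). In cluster 7 it was at 102.4 CPM (71.3 to 142.4), below the 205 CPM of control cluster 4 but less than 2-fold from the 128.9 CPM of all clustered control cells, and 21 of its 35 UMIs there came from 1 of 8 cells. Without that cell cluster 7 had 44.4 CPM, near the level of cluster 1, and with the richest cell left out on each side it was 2.69-fold lower than the clustered control cells (1.59 to 4.97); the letters of cluster 7 had 54.3 and 138.8 CPM. For Lamb1, cluster 2 had 125.3 CPM and cluster 7 had 23.4 CPM, 5.21-fold lower than the clustered control cells (2.62 to 12.1). Cluster 7 shared with control cluster 4 a low Lamb1 and a high Col13a1, the latter at 52.6 CPM (31.2 to 83.2) in cluster 7. They differed in Col9a3, which had 0 UMIs in cluster 7 and was at 85.003 CPM in control cluster 4, and in Lamc1, at 40.9 and 148.2 CPM.

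The chains that were higher in GAP cells were unevenly spread over the same clusters. Col12a1 was at 94.8 CPM (79.6 to 112.1) in cluster 2, in 16 of 51 cells, and at 5.63 and 5.85 CPM in clusters 1 and 7. Col9a1 was at 119.8 CPM (102.6 to 138.998) in cluster 2, in 34 of 51 cells, 8.38-fold above the clustered control cells (6.18 to 11.5), where its letters C and D had 54.2 and 162.8 CPM, against 35.5 CPM in cluster 1 and 8.77 CPM in cluster 7. Col2a1 was at 94.7 CPM in cluster 1 and 88.6 CPM in cluster 2, but within cluster 2 letter C had 10.5 CPM and letter D had 139.9 CPM. Col18a1 was at 73.8 CPM (61.7 to 87.6) in cluster 1, in 36 of 54 cells, and at 54.7 CPM in cluster 2, where letters C and D had 20.97 and 76.8 CPM. Col1a2 (24.2 and 33.9 CPM) and Col6a1 (23.1 and 46.4 CPM) were in clusters 1 and 2, and cluster 7 had 1 and 0 UMIs of them. Within cluster 2 the letters were far apart for both, at 8.74 and 50.4 CPM for Col1a2 and 113.6 and 2.29 CPM for Col6a1, and 33 of the 67 Col6a1 UMIs came from 1 cell. Col11a1 parted clusters 1 and 2, at 184 CPM (164.3 to 205) and 52.6 CPM (41.5 to 65.9), where the clustered control cells were at 135.5 CPM. The endothelial and pericyte list summed to 212, 123.2 and 23.4 CPM in clusters 1, 2 and 7, against 2.36 to 16.1 CPM in the control cells of clusters 0, 3, 4, 5 and 6. Over all GAP cells Rgs5 alone made up 97.6 of this list's 141.8 CPM. The part of such cells in the levels of these chains was not tested.

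**Figure D4:**
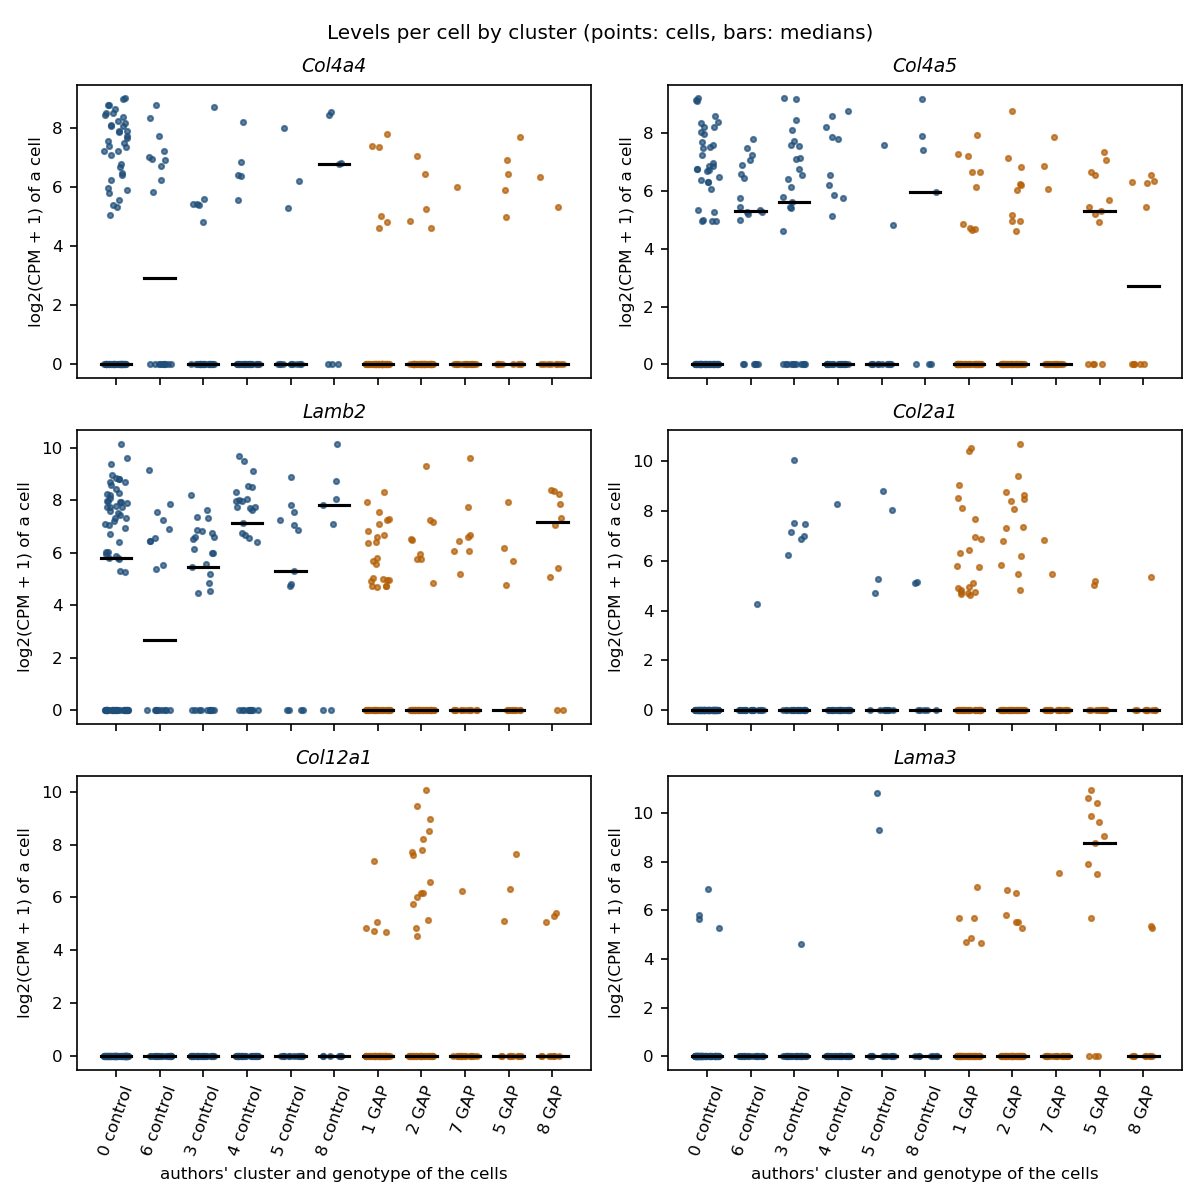
Level per cell, as log2(CPM + 1), of 6 chains in the authors' clusters, control cells in blue and GAP cells in orange; points are cells and bars medians. Col12a1 has no point above 0 in any control cluster, Col4a4 has few points above 0 in GAP clusters 1, 2 and 7, and most GAP cells of cluster 5 have Lama3.

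Counted over all chains at 10 CPM or more in either set, cluster 1 had 6 of 25 chains at least 2-fold lower than the clustered control cells and 10 at least 2-fold higher, where 12 percent and 13.2 percent of all genes were. Cluster 2 had 6 of 25 lower and 8 higher, against 12.3 percent and 16.5 percent of all genes. Cluster 7, with 20 cells, had 9 of 21 lower and 4 higher, against 18.9 percent and 19.6 percent. Col11a1 was among the lower chains in clusters 2 and 7. Cluster 7 was the 1 of these 3 in which more chains were lower than higher.

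Set against the paired control clusters, the alpha4 and alpha5 chains of collagen IV were again at lower levels, though for Col4a4 in cluster 7 the counting interval holds 1. Cluster 1 against cluster 0 gave 5 of 23 chains lower and 10 higher (all genes 11.9 percent and 18.4 percent): the lower ones were Col4a3, Col4a4, Col4a5, Lamb2 and Lamb3, with Col4a4 11.04-fold lower (6.80 to 19.03), while Col4a2 was higher, at 13.5 against 2.36 CPM. Cluster 2 against cluster 3 gave 9 of 24 lower and 10 higher (12.5 percent and 21.6 percent). There Col4a5 was 5.90-fold lower (3.66 to 9.86) and Col4a4 4.34-fold lower (1.71 to 12.4), and Lamb1 and Col9a3 were lower as well. Cluster 7 against cluster 4 gave 6 of 20 lower and 5 higher (17.7 percent and 22.6 percent), with Col4a5 4.35-fold lower (1.81 to 12.6) and Col4a4 at 1 UMI against 8, a ratio of 0.168 (0.00378 to 1.25). The size of the Col4a4 difference thus depended on which control cells it was set against.

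A comparison within letters C and D, chosen after the data had been seen, set the GAP cells of clusters 1, 2 and 7 against the 15 GAP cells of clusters 0, 3, 4 and 6, so that genotype and letters were the same on both sides. Their Col4a4 level was 7.30 CPM and that of the 15 cells 58.2 CPM, 7.98-fold lower (4.22 to 14.9), and their Col4a5 level 16.01 against the same 58.2, 3.64-fold lower (2.07 to 6.15). The 15 cells held 20 UMIs of each gene, 12 of Col4a4 and 9 of Col4a5 in 1 cell. With the richest cell left out on each side, Col4a4 was 4.65-fold lower (1.77 to 11.03) and Col4a5 2.35-fold lower (1.10 to 4.57). By letter, Col4a4 was at 2.40 against 99.2 CPM (letter C) and 11.6 against 26.01 CPM (letter D), and Col4a5 at 10.2 against 39.7 and 21.1 against 72.8 CPM. In letter C, 12 of the 15 Col4a4 UMIs and all 6 Col4a5 UMIs of the 5 cells came from 1 cell; in letter D, with the richest cell left out on each side, Col4a4 and Col4a5 were 1.37-fold (0.152 to 5.81) lower and 1.597-fold (0.488 to 4.10) lower, with intervals that hold 1. Lamb2 did not differ by 2-fold there, at 28.2 against 79.4 CPM (letter C, the latter from 1 cell) and 44.4 against 20.8 CPM (letter D). Of 25 chains, 10 were at least 2-fold lower and 8 higher, where 12.3 percent and 22.6 percent of all genes were. The higher ones included Col12a1 (41.8 CPM against 0 UMIs), Col18a1 (60.7 against 5.82 CPM) and Col2a1 (84.2 against 8.74 CPM), with 0 to 3 UMIs each in the 15 cells. Col9a1 was not among them, at 41.4 and 89.8 CPM in letters C and D against 59.5 and 41.6 CPM.

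Clusters 5 and 8 hold cells of both genotypes. Cluster 5 (Reprogrammed Unknown 1) has 13 control and 13 GAP cells, so its deposited name does not describe its control cells, and the supporting cell markers summed to 15045 CPM in its control cells and 2611 CPM in its GAP cells. Its GAP cells, 11 of 13 of them in letter C, had a laminin profile of their own. Lama3 was at 604 CPM (525 to 691), Lama5 at 743 CPM (656 to 839) and Lamc1 at 552 CPM (477 to 636), each chain in 10 or more cells. Their summed laminins reached 2454 CPM, against 398 to 513 CPM in clusters 1, 2 and 7, while Col11a1 had 3 UMIs and Col11a2 had 1. Of the 245 Lama3 UMIs of GAP cells, 212 were in these 13 cells. The leukocyte list summed to 113.9 CPM and the fibroblast list to 453 CPM in them, and the part of other cells was not tested.

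Cluster 8 (Reprogrammed Unknown 2) has 7 control and 10 GAP cells. Its GAP cells had Lamb2 at 151.4 CPM (106.6 to 209), against 329 CPM (255 to 416) in its control cells, with 60.3% of the latter's UMIs in 1 cell. Against all clustered control cells, 5 of 27 chains were at least 2-fold lower in its GAP cells, among them Col27a1 at 94.1 CPM, and 13 were higher, among them Lamc1 at 270 CPM and Col11a2 at 217 CPM. Of all genes 22.2 percent were lower and 17.4 percent higher. In letters C and D, with 5 GAP cells each, Col4a4 was at 24.5 CPM (3 UMIs) and 0 CPM. Col4a5 was at 32.6 and 41.1 CPM in those letters. The 6 control cells of letter A in cluster 8 had Col4a4 at 134.1 CPM and Col4a5 at 139.9 CPM. The endothelial and pericyte list was at 319 CPM in the control and 471 CPM in the GAP cells of cluster 8, the highest of the clusters in both genotypes.

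The genes that make, modify and bind these chains were taken from lists of known function. Of 32 genes of collagen synthesis and crosslinking, 23 were at 10 CPM or more in a genotype, with a median log2 ratio of -0.29. Of these 23, 1 was at least 2-fold lower and 3 higher, where 6.61 percent and 13 percent of all genes were. The lower one was Lox, the lysyl oxidase that crosslinks collagen fibrils, at 163.8 and 176.5 CPM in the control letters and 16.4 and 11.1 CPM in the GAP letters, 12.2-fold lower (9.58 to 15.7). P3h1, a prolyl 3-hydroxylase, was higher, at 3.999 and 18.3 CPM, as were the lysyl hydroxylase gene Plod1, at 24.5 and 51.4 CPM, and the prolyl 4-hydroxylase subunit gene P4ha3, at 5.75 and 14.7 CPM. The letters of P4ha3 overlapped, at 2.02 and 9.42 CPM in control and 19.5 and 9.03 CPM in GAP cells. Of the most abundant genes of the list, Plod2, whose product allows stable crosslinks, was at 144.5 and 79.9 CPM, Tmem131 at 482 and 348 CPM, the collagen galactosyltransferase gene Colgalt2 at 163.4 and 122.6 CPM and P4hb, the beta subunit of prolyl 4-hydroxylase, at 119.7 and 141.4 CPM, all less than 2-fold apart.

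Other basement membrane genes differed in both directions. Of 18 genes, 16 were at the level, with a median of 0.45. Of these 16, 2 were lower and 6 higher, where 6.61 percent and 13 percent of all genes were. Hspg2, which encodes perlecan, the main heparan sulfate proteoglycan of basement membranes, was at 447 and 141.1 CPM, 3.17-fold lower (2.91 to 3.45), and Smoc1 was 2.06-fold lower (1.85 to 2.30). The related gene Smoc2 was at 10.7 and 199 CPM, 18.5-fold higher (13.6 to 25.7). Nid1, whose product links laminin to collagen IV, was at 7.997 and 44.5 CPM, but letter C had 76.4 CPM and letter D had 6.16 CPM, below both control letters. Nid2 was at 3.999 and 23.7 CPM, Fras1 at 29.7 and 92.4 CPM and Pxdn, the peroxidase that crosslinks collagen IV, at 1.75 and 15.5 CPM. Fn1, fibronectin, had 3 control UMIs and was at 35.2 CPM in GAP cells, a ratio of 46.97 (15.8 to 230), with 87 of its 189 UMIs in 1 cell. Abundant genes less than 2-fold apart were Sparc, a collagen-binding protein, at 656 and 478 CPM, Npnt, nephronectin, at 273 and 190.3 CPM, and Agrn, agrin, at 143.5 and 214.9 CPM.

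Of 25 receptor genes 19 were at the level, with 1 lower, 3 higher and a median of -0.01. Over all genes at the level, 6.61 percent were lower and 13 percent higher. Itgb5 was 2.37-fold lower (1.96 to 2.87). Itga6, the alpha6 integrin that binds laminin, was at 29.7 and 73.98 CPM and Dst, which ties hemidesmosomes to keratin, at 138.96 and 354 CPM. Itga11, a collagen receptor, had 4 and 82 UMIs, all of the latter in letter C. The abundant receptor genes Sdc4, Bcam and Dag1 were less than 2-fold apart. Sdc4, syndecan 4, was at 1489 and 773 CPM. Bcam, which binds laminin alpha5, was at 950 and 583 CPM, and Dag1, dystroglycan, at 377 and 543 CPM. Of 19 matrix protease and inhibitor genes, 6 were at the level, with Mmp11 2.29-fold lower (1.57 to 3.39) and Mmp2, a gelatinase, at 2.50 and 24.2 CPM. Timp2, a protease inhibitor, was at 1047 and 620.2 CPM, and the membrane-bound proteases Mmp14 and Mmp15 at 250.4 and 136.2 CPM and at 187.9 and 127.5 CPM. Among 6 other tectorial membrane genes, of which 5 were at the level, Ceacam16 was 15.6-fold lower (13.8 to 17.6) and Tectb 8.26-fold higher (5.92 to 11.8), at 9.50 and 78.5 CPM. Otog, otogelin, was at 803 and 601 CPM, Otoa, otoancorin, at 763 and 509 CPM and Otogl at 164.7 and 168.3 CPM.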

How the data were processed

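The values are exon UMI counts per gene and cell, deposited by the authors without normalization. STAR, HTSeq and the mm10 build are named per the submitters' processing notes; not given in the sources used here are tool versions, annotation release and strand setting. All 360 count columns were matched to samples by title, and 0 columns of values were left unmatched. Clusters are the authors' deposited assignments of 341 cells; no doublet caller was run on these singly sorted cells. UMIs were summed over the cells of each set and scaled to CPM. A chain counted as different at 10 CPM or more in either set and a ratio of at least 2-fold on the log2(CPM + 1) scale. Levels have exact Poisson and ratios exact conditional-binomial 95% intervals; these cover counting error only, since each genotype is 1 sample and cells are not replicates. A fold against 0 UMIs is the lower end of the exact 95% interval of the ratio. For counts of cells that hold a UMI of both genes of a pair, cells were thinned to 8000 UMIs. Per-kilobase levels use merged exons of GENCODE M21.

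Named chains are all members that reach 10 CPM in a genotype or in a cluster of at least 10 cells; from the lists of genes that make, modify or bind the chains, the 4 genes with most UMIs and those at least 4-fold different between the genotypes, while other listed genes that differed by 2-fold were named after their values were seen. Marker lists are given as sums, with single genes chosen after their values were seen. A chain that is not reported here by name stays in the counts and sums but is not plotted. The members, lists and cluster pairs were chosen with earlier results of these data known. The settings varied were pooling (a mean over cells of their CPM), scaling by TMM (edgeR 4.0.16, R 4.3.3) or by the median of ratios, cells with at least 10000 UMIs, thinning, each letter left out, letters weighted equally, a pseudocount of 10 CPM, filters of 50 CPM or none, the richest cell left out and clustered cells only; leaving out the richest cell in cluster comparisons was added after the data had been seen. The ratio and interval code was tested on simulated data. Python 3.11.15, numpy 2.4.6, pandas 2.3.3 and scipy 1.17.1 were used.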

Additional observations from a re-analysis of the deposited data

How the results depend on the processing

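No paired analysis was possible because the labels give no replicate that spans the genotypes, and each genotype is 1 sample. Of the 5 lower chains, Col4a4, Col4a5 and Lamb2 met both the 2-fold bound and the level filter in all 15 alternatives. Lamb3 met both in all but the 50 CPM filter, and Col4a3 in 9. Of the 10 higher chains, Col18a1, Col2a1 and Col9a1 met both in all 15. Lamb3, Col12a1, Col1a2, Col6a1 and Lama4 stayed at least 2-fold apart in all 15 and failed by level alone. That was under the 50 CPM filter and, for Col6a1 and Lama4, also without letter C. With a 50 CPM filter the counts were 3 lower, 3 lower in every pairing and 3 higher, with 6 genes of the other lists higher; with no filter 19 chains were higher. Without letter C, 6 chains were higher (Col4a2, Col6a1, Lama3 and Lama4 dropped out) and the log2 ratio of Lama3 was -2.49. Col20a1 dropped out without letter A or D, and Col9a3 passed 2-fold lower without B or D. Leaving out 1 letter gave ratios of summed collagens from 0.990 to 1.30 (without D and C) and of summed laminins from 0.846 to 1.203 (without C and D). The collagen ratio was 1.08 with TMM and 1.07 with median-of-ratios scaling, and the laminin ratio 0.986 with the latter and 1.15 with thinning; the summed collagen IV ratio ran from 0.344 to 0.419. The scalings moved the median of all genes by -0.066 and -0.077 on the log2 scale. Genes of the other lists lower in GAP numbered 11 without letter A and 3 without letter B. At 50 CPM in place of 10, 15 chains were present in some control cluster, 9 in cluster 0, 10 in cluster 3, 8 in cluster 4 and 10 in cluster 5. In cluster 8, 3 chains were lower with a pseudocount of 10 CPM. The cause of these shifts was not tested, apart from the smaller number of genes that a filter leaves. Limits: clusters of 10 to 29 cells give wide counting intervals, and plate, animal and genotype cannot be told apart.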

Other observations

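Several scarce chains were held by 1 or a few cells, so their cluster level is that of single cells. In GAP cluster 7, Col7a1, which forms the anchoring fibrils below epithelia, was at 26.3 CPM, with all 9 UMIs in 1 cell. In GAP cluster 8, Col5a3, a fibrillar chain of type V collagen, was at 40.9 CPM, with all 10 UMIs in 1 cell. Col22a1, a chain of tissue junctions, had 6 UMIs in control cells, all in 1 cell of cluster 6. Lama2 had 32 UMIs in 11 control cells and 4 UMIs in 1 GAP cell, 10.7-fold lower in GAP (3.80 to 41.8), below the 10 CPM level in both genotypes; letter A held it at 15.1 CPM and letter B at 0.991 CPM, so the control letters were themselves apart. Col25a1, a transmembrane collagen of neurons, had 27 UMIs in 11 GAP cells, all in letter C, and 0 in control cells.

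Chains that assemble with each other were not always seen in the same cells at this depth. With cells thinned to 8000 UMIs, Lama5 and Lamc1, which join in 1 laminin trimer, were both seen in 37 control cells and 64 GAP cells, and neither was seen in 53 and 27. Col11a1 and Col11a2, partners in type XI collagen, were both seen in 41 control and 32 GAP cells. In cluster 4 no control cell had a UMI of both, 3 had Col11a1 alone and 13 had Col11a2 alone; in cluster 0 the counts were 26, 19 and 20 cells.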
